A study of Mus musculus with 4 samples.

Results

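The adhesion genes described here are 9 genes chosen by name out of the 49671 genes in the deposited tables. They are the integrin chain genes Itgal, Itgb2, Itga4, Itgb1 and Itgb7, the selectin ligand gene Selplg, the hyaluronan receptor gene Cd44 and the immunoglobulin-family genes Icam1 and Icam2. All 9 were found, and all 9 passed the minimum level of 1 RPKM (reads scaled by gene length and library total) and the minimum of 20 allelic reads per replicate used for the tests. The RNA came from CD3+ T cells, enriched on columns from the spleens of female F1 hybrid mice, in 4 samples that are labelled as biological replicates and are taken here as 4 animals. The mothers were C57BL/6 females with a heterozygous Xist deletion and the fathers were Mus musculus castaneus, so that for every autosomal gene the Castaneus allele was the paternal one and the C57BL/6 allele the maternal one. Strain and parent of origin cannot be told apart in this cross. All cells were cultured for 48 hours with plate-bound antibody to CD3 at 1 µg/ml and soluble antibody to CD28 at 10 µg/ml, and the medium also held IMD-0354 at 2.5 µM, a blocker of IKKβ, the kinase that frees NF-κB from its IκB inhibitors. The 4 replicates form 1 group, and cells without stimulation or without the inhibitor were not analysed here, so no effect of either was tested. The comparisons are those between genes, between the 2 alleles of a gene and between the 4 animals.

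T cells leave the blood in steps. P-selectin glycoprotein ligand-1, the product of Selplg, lets the cell roll on selectins of the vessel wall, and integrins, each a pair of an α and a β chain, then arrest it. The αL chain (Itgal) and the β2 chain (Itgb2) form LFA-1, which binds the ICAM proteins on vessel walls and on antigen-presenting cells and holds the immunological synapse together. The α4 chain (Itga4) pairs with β1 (Itgb1) in VLA-4, which binds VCAM-1 and fibronectin, or with β7 (Itgb7) in the gut-homing receptor of MAdCAM-1. CD44 binds hyaluronan and marks activated and memory T cells. ICAM-1 is a ligand of LFA-1 whose gene is a textbook target of NF-κB, and ICAM-2 is a ligand of LFA-1 found on resting leukocytes and endothelium.

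The libraries held 30539711 to 34992012 allelic reads. By an estimate from genes with few reads, 1 molecule gave 11.4, 22.6, 13.0 and 7.19 reads in replicates 1 to 4. Replicate 2, with the fewest reads and the most reads per molecule, thus had the fewest estimated molecules. Xist was read from Castaneus for 99.9% to 99.96% of its allelic reads per replicate, and the other X genes for 3.05% to 3.85%, against 49.5% to 49.7% for the autosomes. Of the T cell markers 10 of 10 were at 1 RPKM or above, with a summed level of 376.4 to 424.5 RPKM. Markers of other cells had lower summed levels. Single ones were high all the same, as the myeloid marker Lyz2 had 74.4 RPKM in replicate 2, above every T cell marker there. The highest of those was Cd2, with 72.6 RPKM. The 9 myeloid markers summed to 110.4, 181.9, 73.4 and 54.6 RPKM in replicates 1 to 4, with 6 of 9 at 1 RPKM or above and Mpo at 0 in replicates 1 and 2, and the 8 B cell markers summed to 12.8, 8.33, 5.66 and 6.17 RPKM. The 5 NK markers summed to 5.87 to 9.62 RPKM with Ncr1 and Klrb1c under 0.1 RPKM in the mean, the 5 platelet and erythroid markers to 3.01 to 6.38 RPKM, and the 6 endothelial and stromal markers to 0.17 to 0.289 RPKM, with Cdh5 and Dcn at 0 in every replicate. In a bulk sample, fewer cells of a type and less RNA per cell cannot be told apart.

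RefSeq promoter windows (GRCm38.p6, the build of mm10), from 250 bases before to 50 bases after a gene's start, were on hand for 5 of the 9 genes. The windows shown are those of Icam1, as the textbook NF-κB target in cells kept in an inhibitor of that pathway, and of Cd44 and Itga4, which had the largest allelic differences among the 9 genes. Capitals mark matches, on either strand, to the letters GGAAATTCC (a κB-like sequence), GGGCGG (the GC box) and TATAAA (the TATA box). The letters are those of the C57BL/6 reference, and the Castaneus letters were not read.
Icam1 (chr9:21015690-21015989, plus strand): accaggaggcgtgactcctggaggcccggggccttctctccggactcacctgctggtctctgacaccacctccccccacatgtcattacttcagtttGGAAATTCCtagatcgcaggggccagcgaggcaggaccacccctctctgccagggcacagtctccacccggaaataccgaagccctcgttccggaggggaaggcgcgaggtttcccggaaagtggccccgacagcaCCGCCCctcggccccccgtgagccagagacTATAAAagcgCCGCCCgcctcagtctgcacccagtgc
Cd44 (chr2:102901616-102901915, minus strand): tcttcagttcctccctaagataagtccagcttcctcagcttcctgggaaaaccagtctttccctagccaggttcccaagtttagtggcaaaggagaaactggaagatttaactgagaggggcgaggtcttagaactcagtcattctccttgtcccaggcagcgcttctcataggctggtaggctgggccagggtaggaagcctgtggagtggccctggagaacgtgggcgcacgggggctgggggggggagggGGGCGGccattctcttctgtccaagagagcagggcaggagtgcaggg
Itga4 (chr2:79255176-79255475, plus strand): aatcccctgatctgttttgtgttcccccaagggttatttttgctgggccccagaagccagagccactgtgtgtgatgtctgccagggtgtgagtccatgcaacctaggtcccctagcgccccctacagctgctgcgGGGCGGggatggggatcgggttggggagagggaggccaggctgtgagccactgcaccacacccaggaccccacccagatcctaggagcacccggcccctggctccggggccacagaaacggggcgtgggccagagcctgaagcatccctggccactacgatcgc
The Icam1 window held 1 match to GGAAATTCC, which starts 153 bases before the RefSeq start and 198 bases before the GENCODE start, and such a match was in 0.317% of 32851 promoter windows of the same length. It also held 1 match to TATAAA, 13 bases after the RefSeq start and 32 bases before the GENCODE start (13.6% of all windows), and 2 matches to GGGCGG (35.7% of all windows). The Cd44, Itga4 and Itgb1 windows each held 1 match to GGGCGG and 0 to the other letters, and the Itgb7 window held 0 of the 3. Only these exact letters were searched, so other forms of a κB site were not counted in any window. A match is a description of the letters, and no binding was measured.

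Itgal was the most abundant of the 9 genes in every replicate, and its LFA-1 partner Itgb2 had the second highest mean, close to that of Cd44. Itgal (ENSMUSG00000030830, chr7:127296260-127335138, mm10) had 62.6, 61.1, 46.6 and 49.3 RPKM in replicates 1 to 4, a mean of 54.9 ± 8.14 RPKM (SD, n = 4). Itgb2 (ENSMUSG00000000290, chr10:77530252-77565708) had 52.8, 49.2, 35.7 and 38.6 RPKM, a mean of 44.1 ± 8.20 RPKM. Both genes were higher in replicates 1 and 2 than in replicates 3 and 4, and the order was the same after scaling to the upper quartile, with 65.0, 58.7, 47.6 and 48.5 for Itgal. On RPKM, Itgb1, Itgb7 and Selplg had this split too, so that 5 of the 9 genes did. Of the 11453 genes at 1 RPKM or above, 23.7% did. After scaling to the upper quartile Itgb1 lost the split, with 34.4, 30.7, 32.3 and 27.3 in replicates 1 to 4, while Itgb7 and Selplg kept it. The ratio of Itgal to Itgb2 was nearly constant all the same, at 1.19 to 1.31 within a replicate, with a mean log2 ratio of 0.32 ± 0.06. Myeloid cells also carry the β2 chain, and Lyz2, the most abundant myeloid marker, had 44.7, 74.4, 27.2 and 18.8 RPKM in replicates 1 to 4, so that it too was higher in replicates 1 and 2. Of the 9 myeloid markers 7 had both of these replicates above the other two, while Mpo did not, nor did Cd68, with 9.91, 16.8, 15.5 and 16.3 RPKM. Itgam, an α chain that pairs with β2 in myeloid cells, had 0.761, 1.14, 0.331 and 0.311 RPKM, a mean of 0.635 RPKM. Itgax, another such chain, had a mean of 0.742 RPKM. Both were low, and both were higher in replicates 1 and 2 than in replicates 3 and 4. The part of myeloid cells in the Itgb2 level was not tested.

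**Figure D1:**
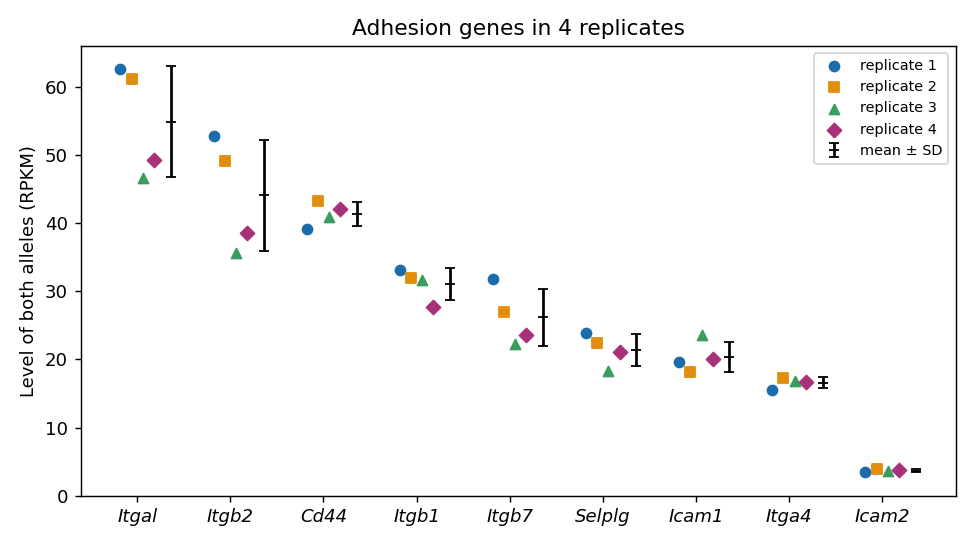
RPKM of both alleles together for each adhesion gene (y axis) in replicates 1 to 4 (points), ordered by the mean, with mean and SD as black bars. Itgal was highest in every replicate, Itgb2 and Cd44 overlapped, Cd44 had a narrow spread of 39.1 to 43.3 RPKM, and Icam2 lay under 4 RPKM in every replicate.

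The partners of the α4 chain each had a higher RPKM than α4 itself. Itga4 (ENSMUSG00000027009, chr2:79255426-79333123) had 15.5, 17.3, 16.9 and 16.7 RPKM, a mean of 16.6 ± 0.763 RPKM with one of the smallest relative spreads of the 9 genes. Itgb1 (ENSMUSG00000025809, chr8:128685654-128733200) had 33.1, 32.0, 31.7 and 27.7 RPKM, and Itgb7 (ENSMUSG00000001281, chr15:102215995-102231944) had 31.8, 27.0, 22.3 and 23.6 RPKM. The ranges of Itga4 and of either β gene did not overlap. In the mean, Itga4 was at 0.534 times the level of Itgb1 (log2 ratio -0.91 ± 0.15) and at 0.639 times that of Itgb7 (log2 ratio -0.65 ± 0.28). On allelic reads of both alleles per exonic kilobase, a measure that also moves with how many variants a gene carries, these log2 ratios were -2.68 and -2.32. Itgb1 was above Itgb7 in 4 of 4 replicates, by 1.04-fold in replicate 1 and 1.42-fold in replicate 3, with a mean log2 ratio of 0.26 ± 0.18 that exceeds its SD, while the ranges of the 2 genes overlapped. Itgal exceeded Itga4 in every replicate, by 2.77-fold to 4.03-fold, and the log2 ratio of 1.72 ± 0.25 became 3.65 on allelic reads per exonic kilobase. Both measures divide by a gene length. The merged exons of Itga4 come to 13978 bases, against 4081 for Itgb1, 2770 for Itgb7 and 6569 for Itgal. The part of length in these ratios was not tested.

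Among the genes of rolling and of hyaluronan binding, Cd44 was higher than Selplg in every replicate, with no overlap. Cd44 (ENSMUSG00000005087, chr2:102811141-102901665) had 39.1, 43.3, 40.9 and 42.1 RPKM, a mean of 41.3 ± 1.80 RPKM. Selplg (ENSMUSG00000048163, chr5:113818536-113832644) had 23.8, 22.4, 18.3 and 21.1 RPKM, a mean of 21.4 ± 2.37 RPKM. The ratio of Cd44 to Selplg ran from 1.64 to 2.24 over the replicates. The values are sums over all transcripts of a gene, so variant exons of Cd44 were not told apart.

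Of the ICAM genes, Icam1 was the higher in all 4 replicates. Icam1 (ENSMUSG00000037405, chr9:21015985-21028817) had 19.6, 18.2, 23.5 and 20.1 RPKM, and Icam2 (ENSMUSG00000001029, chr11:106377656-106388075) had 3.43, 3.97, 3.57 and 3.75 RPKM. The ratio of Icam1 to Icam2 was 4.59 to 6.59, a mean log2 ratio of 2.46 ± 0.22. Replicate 3 was highest for Icam1, at 115.5% of the gene's mean, while it was lowest for Itgal, Itgb2, Itgb7 and Selplg, at 81.0% to 85.4% of their means. An antisense gene, Gm47079, overlaps 11.7% of the Icam1 exons and had 0.188 RPKM, and Cerkl, on the strand opposite to Itga4, overlaps 8.04% of its exons and had 0.0308 RPKM. The sources used here do not say whether strand was used in counting.

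**Figure D2:**
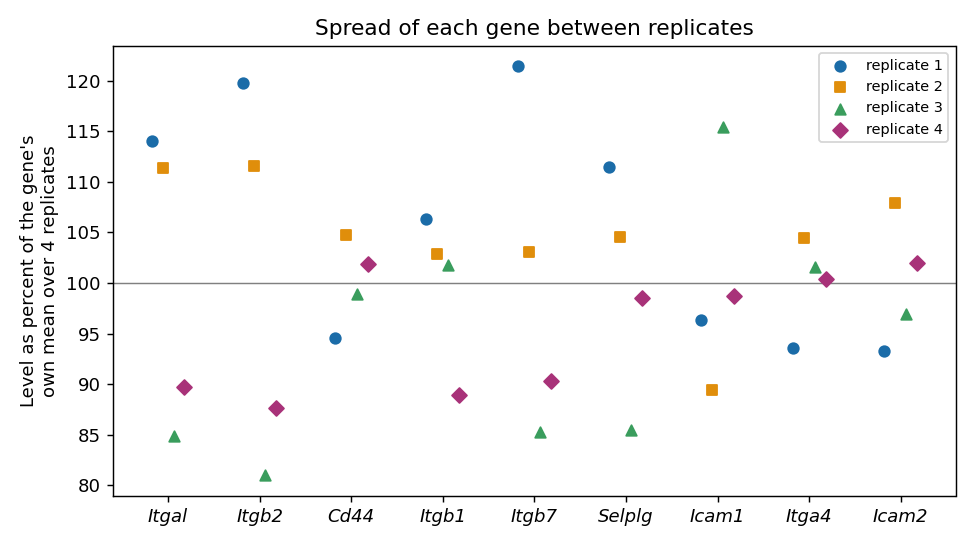
Level of each gene in replicates 1 to 4 as a percent of the gene's own mean over the 4 replicates (y axis), with genes in order of level and a line at 100%. Itgal, Itgb2, Itgb7 and Selplg lay above their means in replicates 1 and 2 and below in replicates 3 and 4. Icam1 peaked in replicate 3, and Cd44, Itga4 and Icam2 stayed between 93.2% and 107.9%.

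From high to low the mean levels ran Itgal, Itgb2, Cd44, Itgb1, Itgb7, Selplg, Icam1, Itga4 and Icam2. The ranges did not overlap between Cd44 and Itgb1, Icam1 and Itga4, or Itga4 and Icam2, where the mean ratio was 4.51. Neighbours whose ranges overlapped but whose order held in 4 of 4 replicates were Itgal and Itgb2, Itgb1 and Itgb7, and Itgb7 and Selplg. Itgb2 and Cd44 kept their order in 2 of 4 replicates and Selplg and Icam1 in 3 of 4, so neither pair was ordered beyond its spread. Among the 11453 genes at 1 RPKM or above, whose median was 6.72 RPKM, Itgal exceeded 95.6% of genes and Itga4 77.5%, whereas Icam2 exceeded 32.2%. The coefficient of variation over the replicates was 4.36% for Cd44, 4.60% for Itga4 and 6.36% for Icam2, and reached 14.8% for Itgal, 16.2% for Itgb7 and 18.6% for Itgb2, against a median of 11.4% over these genes. Of all these genes, 24.8% varied more than Itgb2.

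Between the alleles, 1 of the 9 genes was higher from Castaneus, 2 were lower and 6 were not called. Cd44 gave 56.2%, 56.4%, 55.7% and 55.7% of its allelic reads from Castaneus in replicates 1 to 4, all above the even share. Itga4 gave 46.4%, 46.9%, 41.8% and 42.8%, and Selplg 47.9%, 40.4%, 47.1% and 45.4%, all below it. Among the 10268 autosomal genes tested, 12.4% were called higher from Castaneus and 15.6% lower (edgeR's quasi-likelihood test against equal alleles, FDR of 5%), so that 28.1% were called in either direction. The 3 calls among 9 genes are near that background. The median log2 ratio of Castaneus to C57BL/6 was -0.10 over the 9 genes and -0.04 over all genes tested. How well the reads of each allele map, and how many variants a gene carries, could not be examined. An allelic difference in expression and one in mapping therefore cannot be told apart, here and in the other gene lists.

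The Cd44 difference was the steadiest of the 9. Its mean share was 56.0% ± 0.348 (SD, n = 4), and the Castaneus allele gave 22.0, 24.4, 22.8 and 23.5 RPKM, against 17.1, 18.9, 18.1 and 18.6 RPKM from the C57BL/6 allele when the RPKM was split by the share. The 2 sets of values did not overlap. The log2 ratio was 0.37 with a standard error of 0.04, a 1.29-fold difference (edgeR, adjusted p = 3.45e-05). It rests on 18741 to 20059 allelic reads per replicate. The exact Clopper-Pearson 95% interval of a replicate was at most 1.43 points wide on reads and at most 6.87 points wide on estimated molecules. The call was made in 13 of 13 alternatives, with an adjusted p of 2.74e-31 to 0.00194 and a log2 ratio of 0.35 to 0.42. The size of the difference was ordinary, since 38.0% of the genes tested had a larger one in either direction. The 3 tested genes that start within 500 kb of Cd44 leaned the other way, with log2 ratios of -0.51 to -0.41, and 0 of them was called by edgeR or by DESeq2, or had an unadjusted p under 0.05 in edgeR.

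The α4 chain leaned to C57BL/6. Itga4 had a mean Castaneus share of 44.5% ± 2.56, and its Castaneus allele gave 7.20, 8.13, 7.04 and 7.13 RPKM, against 8.33, 9.20, 9.82 and 9.52 RPKM from C57BL/6. These values did not overlap either. The log2 ratio was -0.30 with a standard error of 0.08 (edgeR, adjusted p = 0.0188), from 3697 to 4461 allelic reads per replicate. Leaving out replicate 3 or replicate 4, the 2 with the lowest shares, ended the edgeR call (adjusted p = 0.104 or 0.121), as did a fit with no replicate block (adjusted p = 0.0523), and the adjusted p was 0.000701 to 0.121 over 13 alternatives. The direction was the same in all of them. The 2 tested genes that start within 500 kb had log2 ratios of -0.02 and 0.09.

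Selplg also leaned to C57BL/6, with a less stable call. Its mean share was 45.2% ± 3.37, and the Castaneus allele gave 11.4, 9.03, 8.61 and 9.57 RPKM, against 12.4, 13.3, 9.65 and 11.5 RPKM from C57BL/6. The ranges overlapped, while the Castaneus value was the lower in 4 of 4 replicates. The log2 ratio was -0.25 with a standard error of 0.08 (edgeR, adjusted p = 0.036). Without replicate 2, which had the lowest share and the most reads per molecule, the log2 ratio was -0.16. Without any other 1 of the replicates it was -0.31 to -0.26. The call was lost in edgeR without any 1 of the 4 replicates (adjusted p = 0.0588, 0.0975, 0.0594 and 0.111 without replicates 1 to 4), with TMM or DESeq2 size factors (adjusted p = 0.0838 and 0.078) and with no block for the replicate (adjusted p = 0.198), and over 13 alternatives its adjusted p was as low as 0.00513. Of 11 tested genes that start within 500 kb of Selplg, 2 were higher from Castaneus and 0 lower in edgeR, with a median log2 ratio of 0.04.

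**Figure D3:**
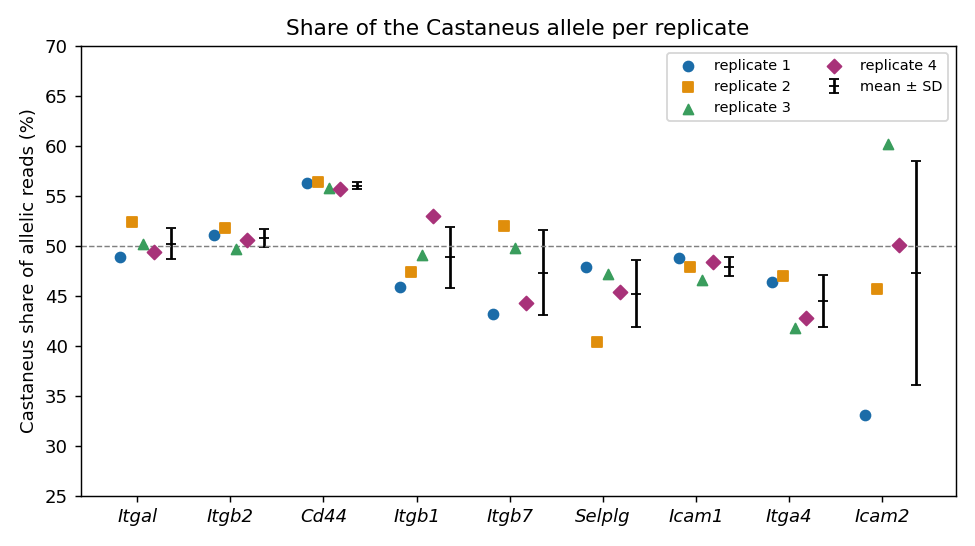
Castaneus share of the allelic reads in percent (y axis, from 25% to 70%) for each adhesion gene in replicates 1 to 4 (points), with mean and SD as black bars and a dashed line at 50%. The Cd44 shares lay close together at 55.7% to 56.4%, the Itga4 and Selplg shares lay below the line in every replicate, and the Icam2 shares ran from 33.1% to 60.2%.

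The LFA-1 chains were read almost evenly from both alleles. Itgal had a mean Castaneus share of 50.2% ± 1.55, from 21188 to 29145 allelic reads per replicate, and Itgb2 one of 50.8% ± 0.864. Their log2 ratios were 0.04 and 0.07, with standard errors of 0.04 and 0.05 (edgeR, adjusted p = 0.60 and 0.396). Itgb1 had 48.8% ± 3.09 and Itgb7 47.3% ± 4.27, with log2 ratios of -0.04 and -0.13 (edgeR, adjusted p = 0.708 and 0.356). Icam1 had 48.8%, 47.9%, 46.6% and 48.4%, below the even share in 4 of 4 replicates but with a log2 ratio of -0.10 that did not pass (standard error 0.07, edgeR, adjusted p = 0.327). Of the 9 genes Icam2 had the fewest allelic reads, 517 to 595 per replicate, and a log2 ratio of -0.14 with a standard error of 0.26 (edgeR, adjusted p = 0.745). A p above the threshold does not show that the alleles were equal.

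Icam2 differed most between animals in its share, at 33.1%, 45.7%, 60.2% and 50.1% from Castaneus in replicates 1 to 4. On reads, the exact 95% intervals of replicate 1 (29.2% to 37.2%) and replicate 3 (55.8% to 64.4%) stood apart. The reads were clumped, at an estimated 7.19 to 22.6 reads per molecule, and the 553 and 517 reads of these replicates then come to about 48 and 40 molecules, with intervals of 20.4% to 48.4% and 43.3% to 75.1% that overlap. The intervals cover counting error only. In the test of alleles by replicates on reads divided by the reads per molecule, 0 of the 9 genes was called, against 0.792% of 8202 autosomal genes (chi-square test, Benjamini-Hochberg). At an unadjusted p under 0.05 it was 1 of the 9, Itgb1 (p = 0.0281, adjusted p = 0.599, chi-square test), against 7.17% of all genes in the test. The share of Itgb1 ran from 45.9% in replicate 1 to 53.0% in replicate 4. The adjusted p of Icam2 was 0.745. On undivided reads 6 of 9 were called, as were 89.5% of genes, and with the estimate divided by 2, 2 of 9 were called, Itgb1 and Icam2 (adjusted p = 0.00895 and 0.0335, chi-square test), as were 13% of genes. The total level of Icam2 varied less than either of its parts, with a coefficient of variation of 6.36%, against 24.7% for the Castaneus part and 19.9% for the C57BL/6 part. The parts are the total split by the share, so the spread of the share enters the parts and not the total. The values therefore do not show that the alleles offset each other. Cd44 and Icam1 were called in none of these 3 forms of the test, nor was Itgb2.

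**Figure D4:**
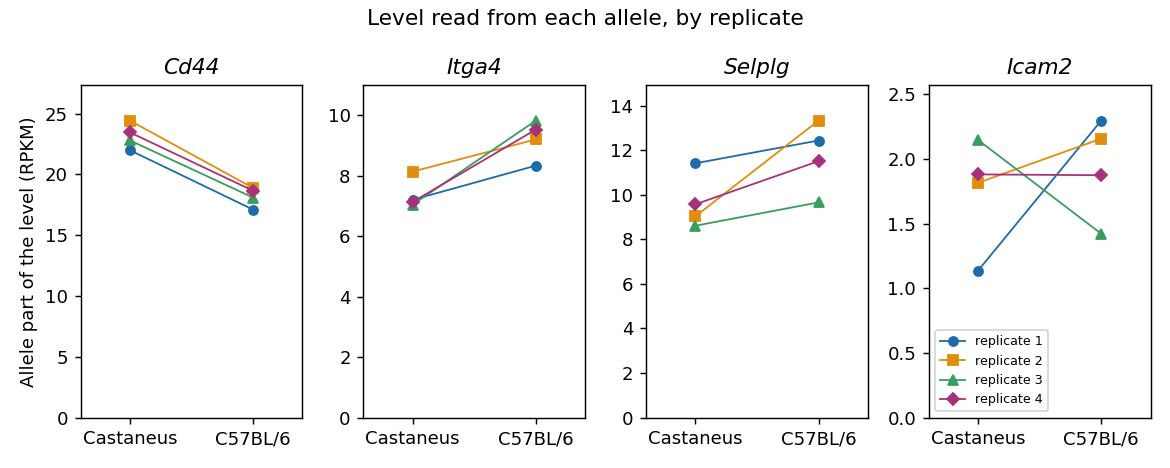
Part of the RPKM read from the Castaneus allele (left) and the C57BL/6 allele (right) for Cd44, Itga4, Selplg and Icam2 (panels, each with its own y axis from 0), with a line per replicate. The Cd44 lines all run downward from Castaneus to C57BL/6, those of Itga4 and Selplg all upward, and those of Icam2 cross.

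The other adhesion genes were looked at in 4 lists. Of 22 further integrin chains, 7 were at 1 RPKM or above and were tested, and 1 was higher and 1 lower from Castaneus. The 3 most abundant were Itgav, the αV chain of vitronectin receptors, with 12.9 ± 0.582 RPKM, Itga6, the α6 chain of laminin receptors, with 6.98 ± 0.764 RPKM, and Itgb3, a β partner of αV, with 6.82 ± 0.733 RPKM (SD, n = 4). Itgb3 had 72.2% ± 4.06 of its reads from Castaneus (log2 ratio 1.41, edgeR, adjusted p = 3.55e-06) and Itgav 37.9% ± 1.52 (log2 ratio -0.69, adjusted p = 2.39e-05), so that these partner chains leaned to opposite alleles. Itga6 was not called, at 50.5% ± 2.57.

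Of 15 ligands and selectins 3 were tested, of which 2 were higher and 1 lower from Castaneus. Cd47, which encodes a ubiquitous receptor of thrombospondin-1 and ligand of SIRPα, had 49.6 ± 3.42 RPKM and a Castaneus share of 53.3% ± 1.98 (log2 ratio 0.21, edgeR, adjusted p = 0.0173). Pecam1, an adhesion molecule of endothelium and leukocytes, had 3.38 ± 0.364 RPKM and a Castaneus share of 75.0% ± 4.98 (log2 ratio 1.63, adjusted p = 2.57e-05). Thbs1, which encodes thrombospondin-1, had 5.28, 8.97, 3.07 and 1.70 RPKM and a share of 34.9% ± 2.46 (log2 ratio -0.89, adjusted p = 0.000806). Its order over the replicates was that of 5 of the 9 myeloid markers, Lyz2 and S100a8 among them, and not that of the other 4, such as Cd68. The part of myeloid cells in the Thbs1 level was not tested. Vcam1 and Fn1, which encode the ligands of VLA-4, were at 0.091 and 0.234 RPKM, and Madcam1, which encodes the ligand of the α4β7 integrin, at 0.0384 RPKM.

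Of 24 genes of integrin activation and its link to the cytoskeleton 18 were tested, with 3 higher and 4 lower from Castaneus. Rap1b, a GTPase that switches LFA-1 on, was the most abundant, with 158.3 ± 6.74 RPKM, and had 0 allelic reads, so its alleles could not be compared. Tln1, which encodes talin, the protein that binds integrin β tails, had 49.7 ± 3.03 RPKM and an even share of 50.6% ± 0.99, and Ezr, a linker of membrane and actin, had 42.7 ± 3.32 RPKM and a share of 53.9% ± 0.865 (log2 ratio 0.25, edgeR, adjusted p = 0.00305). Among the called genes of this list, the largest allelic differences were those of Apbb1ip, which encodes the adaptor RIAM between Rap1 and talin (64.8% ± 1.42, log2 ratio 0.90, adjusted p = 5.87e-07), Fyb, which encodes the adaptor ADAP (41.1% ± 1.28, log2 ratio -0.50, adjusted p = 2.93e-05), and Pxn, which encodes paxillin (42.3% ± 2.33, log2 ratio -0.43, adjusted p = 0.00128).

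Of 13 genes of the enzymes that build selectin ligands 7 were tested, with 1 higher and 2 lower from Castaneus. B4galt1, a galactosyltransferase gene, had 92.5 ± 9.02 RPKM and a share of 43.4% ± 1.21 (log2 ratio -0.36, edgeR, adjusted p = 5.73e-05). Tpst2, a tyrosine sulfotransferase gene, had 13.8 ± 1.39 RPKM and was not called. C1galt1, which starts core 1 O-glycans, had 12.1 ± 1.15 RPKM and a share of 56.1% ± 1.91 (log2 ratio 0.38, adjusted p = 0.00272), and Gcnt1, which makes the core 2 branch, had 1.84 ± 0.645 RPKM and a share of 39.8% ± 2.78 (log2 ratio -0.58, adjusted p = 0.0105). Fut7, the fucosyltransferase gene of selectin ligands in leukocytes, was at 0.91 RPKM and was not tested. The median log2 ratios were 0.04 for the integrin chains, 0.21 for the ligands, 0.01 for the activation genes and -0.08 for the enzymes, beside -0.04 for all genes tested.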

How the data were processed

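Members and gene lists were chosen with earlier results of these data known. The authors deposited whole-number read counts per gene and allele, not normalized, and RPKM of both alleles together, per the file headers. STAR 2.7.1a, featureCounts and mm10 are named in the submitters' processing notes. The sources used here do not give the allele assignment, the total behind the RPKM or duplicate removal. Positions came from GENCODE M21 (49412 IDs matched).

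Autosomal genes with a mean of at least 20 allelic reads and 1 RPKM (10268) were fitted with edgeR 4.0.16 (R 4.3.3, glmQLFit and glmQLFTest) with replicate as block and an allele term, with the autosomal total of an allele as its library size, and Benjamini-Hochberg adjustment over all of them. The standard error is the log2 ratio over the root of the F statistic. Both alleles of a replicate come from 1 animal. The alternatives used DESeq2 1.42.0, other scalings and filters, and leaving out a replicate. Shares were compared between animals by chi-square tests on reads divided by the reads per molecule, on genes with expected counts of at least 5. The reads per molecule were estimated from the share of autosomal genes with 20 to 39 reads that showed 1 allele only, with equal alleles assumed. Other steps used Python 3.11.15, pandas 2.3.3 and scipy 1.17.1. Named genes are the 9 members and, per list, the 3 most abundant and up to 3 called with the largest ratio; others named were chosen after their values were seen.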

Additional observations from a re-analysis of the deposited data

How the results depend on the processing

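Of 117 tests of a member's allelic ratio under an alternative, 107 gave the same call as reported and 10 lost a call, all of them of Itga4 or Selplg, and 0 reversed a called direction. In 4 of them the sign of a ratio that was not called changed (Itgb1 with TMM factors and without replicate 1, Icam2 without replicate 1 and Itgal without replicate 2). The number of adhesion genes lower from Castaneus was 0 without the replicate block, 1 with TMM factors, 1 with DESeq2 size factors and 0 to 1 when a replicate was left out, against 2 reported. Cd44 was called higher under each of the 13 alternatives. Over all autosomal genes, leaving out a replicate gave 1041 to 1720 genes lower from Castaneus, against 1605, the lowest number being without replicate 4. The test between animals called 8840 genes and 6 of the 9 on undivided reads, and 1159 genes and 2 of the 9 with the reads per molecule divided by 2, against 65 genes and 0 of the 9. It called 26 to 64 genes when a replicate was left out, with 42 without replicate 1 and 26 without replicate 4. In the order of levels 5 to 9 of the 9 genes kept their place without a replicate, 5 of them without replicate 1, and 9 of 9 with both rescalings. All 7 ratios between members kept their direction under a pseudocount of 1 RPKM, on allelic reads per exonic kilobase and without any replicate. Their sizes moved on allelic reads per exonic kilobase, where the log2 ratio was -2.68 for Itga4 over Itgb1, -2.32 for Itga4 over Itgb7 and 3.65 for Itgal over Itga4. Depth limits the shares most for Icam2, whose interval on molecules was up to 41.6 points wide, against 6.87 for Cd44.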
